A study of Mus musculus with 4 samples.

Results

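The neutrophils that had entered tumors were examined as the whole population sorted from that tissue, without division into subsets. Members were all barcodes of the tumor RNA library with at least 200 detected genes and at most 15% of their UMIs in mitochondrially encoded genes, whatever their hashtag counts. A UMI (unique molecular identifier) marks 1 captured RNA molecule. This rule kept 947 of the 10000 barcodes listed for tumor, which are 947 of the 2481 cells that the same limits kept in the whole series. The other 1534 cells came from blood. Tumor neutrophils came from untreated FVB mice, an inbred strain, carrying tumors of about 1 cm diameter that grew for 2 to 3 weeks from injected cells of Py7160, a mouse mammary tumor line. Blood neutrophils came from the same 3 mice, so the blood group also carried the tumor, and no mouse without a tumor was included. Tumors were digested with enzymes and blood went through red-cell lysis, after which both were enriched through Ly6G and sorted as CD11b+ Ly6G+ cells to over 99% purity by the labels. Each mouse was marked by 1 of 3 hashtag antibodies, antibodies coupled to a DNA barcode. Cells of the 3 mice were then combined for each tissue and sequenced as 1 library by Drop-seq, in which droplets pair single cells with barcoded beads. The tissue, its library and its dissociation therefore cannot be told apart. A cell was assigned to a mouse where 1 hashtag had at least 10 counts and at least 70% of the cell's hashtag counts. Mice 1, 2 and 3 then held 106, 564 and 171 tumor cells, against 511, 456 and 408 blood cells, and 106 tumor cells had no mouse, 103 of them because of mixed hashtags.

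Neutrophils are short-lived phagocytes that leave the bone marrow loaded with calcium-binding calgranulins and granule proteins and circulate in blood until chemokines draw them into tissue. Once in inflamed or hypoxic tissue they can secrete cytokines and chemokines of their own, most of them under the control of the transcription factor NF-kB, and they switch on genes of iron storage, glycolysis and lipid storage. Acod1, whose enzyme diverts cis-aconitate of the tricarboxylic acid (TCA) cycle into itaconate, is the gene the study is about, together with ferroptosis, an iron-dependent death by lipid peroxidation.

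The tumor cells held 655627 UMIs, with a median of 576 UMIs and 294 genes per cell. Median UMIs per cell were 581 ± 9.24 in tumor mice and 657 ± 12.6 in blood mice (SD, n = 3 each), without overlap; an exact permutation test (two-sided, 3 mice a tissue) gave p = 0.1, the smallest it allows (0.133 after Benjamini-Hochberg adjustment over 4 such tests). The mitochondrial share of UMIs, on which cells were filtered, is given without a test: it was 3.23% ± 0.165 in tumor mice and 5.67% ± 0.357 in blood mice (SD, n = 3 each). Nearly all of it was the ribosomal RNA mt-Rnr2, at 2.88% to 3.18% of UMIs in tumor mice and 5.16% to 5.86% in blood mice. Over 8 mitochondrial genes that passed edgeR's low-count filter the median log2 fold change, tumor over blood, was 0.93. It is also given without a test, since the cell filter used these counts. In tumor barcodes that were not kept as cells, hashtag 2, which marked most tumor cells, had a median of 183 counts. Hashtags 1 and 3 had medians of 18 and 26 there. Each hashtag had a median of 935 to 1444 counts in its own cells. No kept barcode occurred in both RNA libraries.

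The label was checked against marker genes. All 12 neutrophil markers searched were detected in tumor cells and together made up 90402 CPM (counts per 1e6 UMIs of the summed cells), against 204010 CPM in blood cells. Ly6g, the gene of the sorting marker, stood at 59.5 CPM in tumor cells, from 39 UMIs, and at 293 CPM in blood cells. The 6 genes named as markers of the population, Cxcl2, Fth1, Ccrl2, Acod1, Il1rn and Hilpda, together reached 89883 CPM in tumor cells and 3873 CPM in blood cells. Some cells carried markers of other types. Of the 947 tumor cells, 98 (10.3%) held 2 or more UMIs of the markers of some other type, 74 of them of monocyte or macrophage markers and 42 of MHC class II or dendritic markers. All 12 monocyte or macrophage markers were detected, at a summed 482 to 2225 CPM over the tumor mice. Of the 9 MHC class II or dendritic markers, Cd74 and the H2-Aa, H2-Ab1 and H2-Eb1 chains were detected, and the dendritic-cell genes Flt3, Xcr1, Clec9a, Cd209a and Siglech were at 0. Erythroid and mast-cell markers were at 0 UMIs in tumor cells, and the epithelial, fibroblast, lymphoid, endothelial, platelet and eosinophil lists held 3 to 27 UMIs each. In blood cells the erythroid markers had 21618 UMIs, or 16998 CPM, and 191 of the 1534 cells held 2 or more UMIs of the markers of some other type, erythroid ones left aside. The part of these transcripts in the comparison with tumor was not tested. Where these cells hold a large part of a gene's UMIs, that share is given beside the gene. In summed counts, fewer cells of a type and less RNA per cell cannot be told apart.

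The most abundant transcripts of tumor neutrophils were those of the ferritin heavy chain, a CXC chemokine and the calgranulins. Drop-seq counts each molecule once near its 3' end, so a level in CPM does not grow with transcript length. The 25 most abundant genes outside mitochondrial and ribosomal protein genes held 32.2%, 29.2% and 30.1% of the UMIs of tumor mice 1, 2 and 3, against 30.3%, 30.2% and 28.6% of those of the blood mice. By edgeR's quasi-likelihood test with Benjamini-Hochberg adjustment over 3674 genes, 16 of the 25 were higher in tumor, 7 were lower and 2 did not pass the threshold of 0.05. The 25 were chosen by their level in tumor, which favours genes that are higher there. Among all tested genes, 30.2% passed as higher in tumor and 29.8% as lower, with a median log2 fold change of −0.04. The 10 most abundant genes of each mouse were taken over all genes, mt-Rnr2 included. They held 24.7% ± 1.44 of the UMIs in tumor mice and 33.7% ± 0.867 in blood mice (SD, n = 3 each). The exact permutation test gave p = 0.1 (adjusted 0.133). Every tumor mouse was lower than every blood mouse, and the part of mt-Rnr2 in this difference was not tested.

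Fth1, the ferritin heavy chain that stores and oxidizes iron (chr19:9980598-9985098, GRCm38), led the list. It reached 46748, 38086 and 42871 CPM in the tumor mice, against 3487, 3639 and 3809 CPM in the blood mice. Every tumor mouse was above every blood mouse by a wide margin, and the log2 fold change was 3.56 (SE 0.0992; edgeR, adjusted p = 1.21e-14). Ftl1, the light chain of the same protein shell, stood at 18099, 16312 and 16772 CPM in the tumor mice, against 3279, 3236 and 3179 CPM in the blood mice, a log2 fold change of 2.42. The tumor groups of both ferritin chains lay apart from blood.

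Cxcl2, a chemokine that draws neutrophils through the receptor Cxcr2 (chr5:90903871-90905938), was the second gene of the list. It had 38180, 26569 and 38789 CPM in the tumor mice, against 22.9, 15.8 and 18.2 CPM in the blood mice. It thus ranked beside ferritin in tumor cells and was near the limit of counting in blood, where it had 22 UMIs in all, against 17468 in tumor, and the log2 fold change was 10.79 (SE 0.202; edgeR, adjusted p = 1.07e-16). The chemokines Ccl3 and Ccl4 were also in the list. Ccl3, a ligand of Ccr1, had 6330, 6739 and 8848 CPM in the tumor mice and 3 UMIs in all blood mice together, and Ccl4, a related CC chemokine, had 3923, 5006 and 4210 CPM in the tumor mice and 4 UMIs in blood. Ccrl2, a chemerin-binding surface protein related to the chemokine receptors (chr9:111054486-111057519), had 11174, 8729 and 10962 CPM in the tumor mice, against 32.1, 31.6 and 21.2 CPM in the blood mice, with a log2 fold change of 8.47 by edgeR (adjusted p = 4.26e-16). In each of these genes all tumor mice were far above all blood mice.

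The calgranulin genes S100a8 and S100a9, whose products form the calcium-binding protein calprotectin, were the third and the fourth transcript in tumor. S100a8 stood at 34852, 37707 and 30138 CPM in the tumor mice, against 91694, 95267 and 81309 CPM in the blood mice, with a log2 fold change of −1.36 by edgeR (adjusted p = 5.83e-09). S100a9 stood at 34272, 36565 and 31507 CPM in tumor, against 84960, 89612 and 74948 CPM in blood, a log2 fold change of −1.27. Both genes were lower in every tumor mouse than in any blood mouse, and yet remained among the most abundant transcripts of the tumor cells. Cells with markers of other types, which hold 17.7% of the tumor UMIs, held 26.4% of the S100a8 UMIs and 9.98% of those of Cxcl2. Other transcripts of the list that were lower in tumor were Malat1, a nuclear noncoding RNA (13946 ± 509 CPM in tumor and 29496 ± 3515 CPM in blood; SD, n = 3 each), the actin-binding Tmsb4x, actin itself (Actb), the resistin-like Retnlg and Wfdc17, a small secreted protein. Actb had 6854, 7261 and 6854 CPM in the tumor mice, against 17648, 17718 and 17681 CPM in the blood mice, and Tmsb4x 7194 ± 133 CPM in tumor and 18581 ± 136 CPM in blood.

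Further genes that were higher in tumor were those of inflammatory sensing and its brakes. Cd14, the lipopolysaccharide co-receptor, had 13397, 11280 and 11552 CPM in the tumor mice, against 389, 271 and 406 CPM in the blood mice (log2 fold change 5.10). Nfkbia, the inhibitor that holds NF-kB in the cytoplasm and is itself induced by it, had 12250, 9111 and 10508 CPM in tumor, against 325, 374 and 394 CPM in blood (log2 fold change 4.88). Neither gene's groups overlapped. Il1b, the inflammatory cytokine, was high in both tissues, with 14020, 9331 and 9011 CPM in the tumor mice and 6634, 5423 and 7499 CPM in the blood mice. Its groups did not overlap, but the log2 fold change of 0.73 was the smallest among the genes of the list that were called higher (edgeR, adjusted p = 0.000297). Il1rn, the receptor antagonist that opposes it, had 3668, 3994 and 3868 CPM in tumor, against 163, 155 and 148 CPM in blood (log2 fold change 4.65). The remaining members that were higher in tumor were the proteoglycan core Srgn (log2 fold change 1.87), the lectin receptor Clec4e, also known as Mincle (2.84), the signalling adaptor Plek (2.24), the stress gene Gadd45b (4.78), the cathepsin inhibitor Cstb (4.93) and the receptor gene Lilr4b (1.43). The MHC class I genes B2m (5037 ± 576 CPM in tumor and 5063 ± 302 CPM in blood; SD, n = 3 each) and H2-D1 (4165 ± 412 CPM in tumor and 4743 ± 139 CPM in blood) did not pass the test, with edgeR adjusted p = 0.889 and 0.212.

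The 2 markers outside the 25 followed closely. Acod1 (chr14:103046977-103056573) had 3271, 2896 and 3397 CPM in the tumor mice, against 4.58, 15.8 and 12.1 CPM in the blood mice, from 1744 UMIs in tumor and 12 in blood, a log2 fold change of 8.20 (SE 0.225; edgeR, adjusted p = 1.18e-14). Hilpda, a hypoxia-inducible protein of lipid droplets that inhibits lipolysis (chr6:29272488-29275446), had 2280, 1879 and 2088 CPM in the tumor mice and 1 UMI in all blood mice. RNA outside cells was gauged from the 5945 tumor barcodes with 20 to 60 UMIs. The level in cells exceeded that in these barcodes for 23 of the 25 genes, for instance by 4.78 times for S100a8, 2.61 times for Fth1 and 1.85 times for Cxcl2. It was lower for Malat1 (0.599 times) and Lilr4b (0.791 times). For Acod1 the ratio was 1.52 and for Hilpda 4.21.

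**Figure D1:**
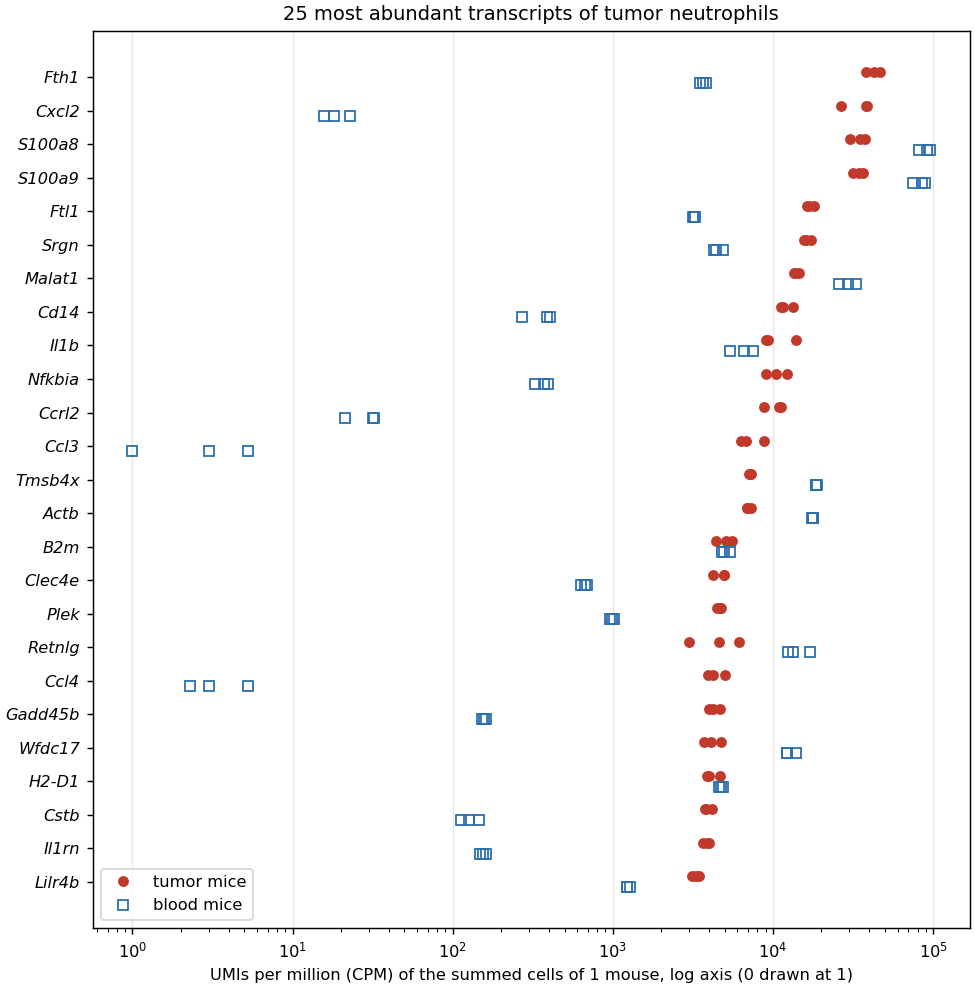
Levels of the 25 most abundant genes of tumor neutrophils, in CPM on a log axis, with a filled red point for each of 3 tumor mice and an open blue square for each of 3 blood mice (0 is drawn at 1). Fth1 and Cxcl2 lead in tumor, where they lie between 26569 and 46748 CPM, and Cxcl2, Ccrl2, Ccl3 and Ccl4 lie below 100 CPM in blood, while S100a8, S100a9, Actb and Tmsb4x are the reverse case, lower in tumor than in blood.

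Promoter sequences are shown for 3 CXC chemokine genes of the tumor cells and for Nfkbia, because a short NF-kB motif lies just before their starts. The motif searched was GGGNNTTTCC, on both strands, in RefSeq promoter windows (build GRCm38.p6) that run from 250 bases before to 50 bases after each start. Of 32851 windows of this length, 1.63% held a match to GGGNNTTTCC, and counted by gene 512 of 27025 did. Among the 25 most abundant genes, 21 had a window and 4 of these genes held a match (B2m, Cxcl2, Il1rn and Nfkbia), and in the list of chemokine ligands 4 of 9 genes did (Ccl9, Cxcl1, Cxcl2 and Cxcl3). The other motifs searched were ACGTG (hypoxia), TGACNNNGC (antioxidant) and TTGCNNAA (C/EBP). They matched 8, 3 and 4 of 27 windows of the 25 most abundant genes, against 19.6%, 12.4% and 10.8% of all windows. The 4 stretches printed were chosen after the search and lie outside the annotated gene. They are read 5' to 3' on the gene's strand and carry the matches to GGGNNTTTCC in capitals. They cover chr5:90903799-90903870 (plus strand) for Cxcl2, chr5:90891145-90891240 (plus strand) for Cxcl1, chr5:90786001-90786100 (plus strand) for Cxcl3 and chr12:55492648-55492747 (minus strand) for Nfkbia.
Cxcl2: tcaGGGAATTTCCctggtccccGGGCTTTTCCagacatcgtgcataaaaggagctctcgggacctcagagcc
Cxcl1: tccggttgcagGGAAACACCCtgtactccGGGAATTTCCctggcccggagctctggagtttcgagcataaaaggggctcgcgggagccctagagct
Cxcl3: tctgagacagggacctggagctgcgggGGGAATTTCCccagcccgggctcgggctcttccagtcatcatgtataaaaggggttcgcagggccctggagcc
Nfkbia: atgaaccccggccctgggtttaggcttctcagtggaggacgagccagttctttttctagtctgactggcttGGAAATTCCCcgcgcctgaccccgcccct
The Cxcl2 stretch held matches that began 97 and 78 bases before the RefSeq start, the Cxcl1 stretch matches at 89 and 71 bases, the Cxcl3 stretch a match at 73 bases and the Nfkbia stretch a match at 29 bases. Cxcl1, Cxcl2 and Cxcl3 share the letters GGGAATTTCC and are neighbours on chromosome 5. A match is a description of the sequence and not evidence of binding.

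Across gene groups, cytokines, stress responses, hypoxia and lysosome genes were mostly higher in tumor neutrophils, and calgranulin, granule and actin genes were mostly lower. The counts of each list below stand beside 30.2% higher and 29.8% lower over all 3674 tested genes. Of 15 chemokine ligands, 6 could be tested, of which 5 were higher (Cxcl1, Cxcl2, Cxcl3, Ccl3 and Ccl4) and Ccl6 was lower (700 ± 69.4 CPM in tumor and 1441 ± 74.6 CPM in blood; SD, n = 3 each). The 5 were near 0 in blood, so they passed the low-count filter through their tumor counts and could only be called higher. The same holds in the lists below for genes with few or 0 blood UMIs. Among them are Il1a, Il23a, Nr4a3, Hilpda, Ptgs2, Pdcd1lg2 and Havcr2. Counts and medians of lists with such genes are descriptions. Cxcl1 had 297, 449 and 762 CPM in the tumor mice and 0 UMIs in blood, so it was at least 189-fold higher in tumor, counting 3 UMIs over the blood mice as the floor. By the same floor Cxcl3, with 496, 197 and 402 CPM in tumor, was at least 105-fold higher. The list's median log2 fold change was 10.18 as fitted and 8.86 with these genes set at their bounds, against −0.04 over all genes. Among chemokine and cytokine receptors, 8 of 22 were higher and 8 lower, near the shares over all tested genes. Cxcr2, the receptor for Cxcl1 and Cxcl2, had 864, 784 and 950 CPM in the tumor mice, against 6116, 5862 and 6025 CPM in the blood mice, with a log2 fold change of −2.78 by edgeR (adjusted p = 4.08e-12). All tumor mice were lower than all blood mice. In the same list Il1r2, the decoy receptor for IL-1 (3030 ± 371 CPM in tumor and 80.1 ± 19.2 CPM in blood; log2 fold change 5.26), and Ccr1 (1759 ± 61.1 CPM in tumor and 1020 ± 151 CPM in blood; 0.82) were higher.

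Of 9 tested cytokines of the IL-1 and TNF families and related factors, 8 were higher in tumor and Tnfsf14 was lower, with a median log2 fold change of 4.25. Besides Il1b and Il1rn, Tnf rose by 6.34 on the log2 scale, to 449 ± 81.0 CPM in tumor, against 5.05 ± 1.93 CPM in blood (SD, n = 3 each). Csf1, the macrophage growth factor, and Osm, oncostatin M, rose by 2.73 and 2.77. Il23a, a subunit of IL-23, had 609, 374 and 291 CPM in the tumor mice and 0 UMIs in blood, which makes it at least 148-fold higher. Il1a, also at 0 UMIs in blood, was at least 59.4-fold higher. Of 21 tested genes of NF-kB and its feedback, including mRNA decay factors, 18 were higher, Socs3 was lower and 2 did not pass (median 1.83). They included Nfkbiz, an atypical inhibitor-family co-activator (2170 ± 157 CPM in tumor and 173 ± 39.9 CPM in blood; log2 fold change 3.66), Zfp36, which destabilizes cytokine mRNAs (1.47), Dusp5, a phosphatase of ERK (4.72), and Tnfaip2 (0.78).

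Immediate early genes moved the same way, with 15 of 19 higher in tumor and Ier2 lower (median 0.95). Atf3, a stress-induced transcription factor, had 1671, 2024 and 1497 CPM in the tumor mice, against 66.4, 21.0 and 33.3 CPM in the blood mice (log2 fold change 5.41). Ier3 rose by 3.87, and Junb (0.54) and the antiproliferative Btg1 (0.43) by less. The nuclear receptor gene Nr4a3 had 382 UMIs in tumor mice and 0 in blood mice, so it was at least 255-fold higher. All 6 tested heat shock genes were higher (median 2.16), among them the endoplasmic reticulum chaperone Hspa5 (2050 ± 71.2 CPM in tumor and 325 ± 73.1 CPM in blood; SD, n = 3 each; log2 fold change 2.69), the cytosolic chaperones Hsp90aa1 (3.79) and Hsp90ab1 (1.00), and Dnaja1 (1.02). Heat shock and immediate early genes can also respond to tissue digestion, which the tumor cells alone went through. The part of digestion cannot be told apart from that of tissue here.

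Of 10 tested ferritin and iron genes, 7 were higher and 2 lower in tumor (Slc40a1, the iron exporter, and Steap4), with a median of 1.45. Hmox1, the haem-degrading oxygenase, had 426 ± 50.3 CPM in tumor and 93.3 ± 12.8 CPM in blood (SD, n = 3 each), a log2 fold change of 2.24. Slc11a1, the phagosomal metal transporter, did not pass (466 ± 36.0 CPM in tumor and 445 ± 24.4 CPM in blood; edgeR, adjusted p = 0.479). In the list of ferroptosis and thiol defence, 9 of 17 genes were higher and 5 lower (median 1.27). Slc7a11, the cystine importer, had 623, 571 and 642 CPM in the tumor mice, against 11.4, 23.7 and 21.2 CPM in the blood mice, a log2 fold change of 5.04, and its partner chain Slc3a2 rose by 4.46. No tumor mouse overlapped the blood mice in Slc7a11. Nfe2l2, the gene of the antioxidant regulator Nrf2, rose by 1.27, whereas the methionine sulfoxide reductase Msrb1 (1595 ± 28.7 CPM in tumor and 3888 ± 184 CPM in blood) and the peroxiredoxin Prdx5 fell by 1.26 and 0.44. Txn1, thioredoxin, was among the most abundant of the list and did not pass (2215 ± 215 CPM in tumor and 2280 ± 183 CPM in blood; edgeR, adjusted p = 0.889).

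Hypoxia and lipid droplet genes were higher in 13 of 15 tested cases and lower in 0 (median 3.31). Besides Hilpda, G0s2, an inhibitor of the lipase Atgl, had 1459, 1253 and 1309 CPM in the tumor mice, against 98.5, 28.9 and 21.2 CPM in the blood mice (log2 fold change 4.67). Plin2, a coat protein of lipid droplets, rose by 3.68, the oxidoreductase Ero1l by 5.74 and the collagen prolyl hydroxylase P4ha1 by 4.49. Of 17 tested glycolysis genes, 13 were higher and 3 lower (Slc2a3, Gpi1 and Pfkfb4), with a median of 1.29. Tpi1, triosephosphate isomerase, stood at 547 ± 65.1 CPM in tumor mice and 42.8 ± 6.27 CPM in blood mice (SD, n = 3 each; log2 fold change 3.69). Smaller rises were those of Pfkp (2.87), Ldha (1.78), Aldoa (1.29) and Pkm (0.60). In contrast, of 8 tested TCA cycle genes Acod1 alone was higher, Sdhd, a subunit of succinate dehydrogenase, was lower (46.1 ± 20.5 CPM in tumor and 101 ± 15.1 CPM in blood; log2 fold change −1.07), and 6 did not pass, among them citrate synthase (Cs, 52.8 ± 17.3 CPM in tumor and 44.6 ± 8.97 CPM in blood) and Mdh2. At 25 and 50 UMIs over the tumor mice, Cs and Mdh2 were too sparse for small differences to be detectable.

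All 4 tested S100 genes were lower in tumor (median −1.44), among them S100a11 (1584 ± 130 CPM in tumor mice, 4627 ± 239 CPM in blood mice) and S100a6 (1095 ± 291 CPM in tumor mice, 3532 ± 282 CPM in blood mice) (SD, n = 3 each). Of 21 tested genes of secondary and tertiary granules and late secreted proteins, 17 were lower and 3 higher (median −1.50). Retnlg had 6104, 4619 and 2995 CPM in the tumor mice, against 17004, 12438 and 13255 CPM in the blood mice, a log2 fold change of −1.63, and cells with markers of other types held 45.3% of its tumor UMIs. The tumor mice all lay below the blood mice. Wfdc21 (−1.92), the peptidoglycan-binding Pglyrp1 (−2.13) and Ngp, neutrophilic granule protein (−0.93), were lower too, whereas the protease inhibitor Slpi (0.67) and olfactomedin 4 (Olfm4, 2.51) were higher. The call for Ngp, like those for the granule genes Camp and Ltf, did not hold without the cells with markers of other types, where the log2 fold changes were 0.18, 0.08 and 0.87. Most of the UMIs so removed lay in 16 cells set apart by Ly6c2, a marker that immature granulocytes also carry. Primary granule genes, which mark early precursors, were nearly undetected: Cd63, which other vesicles also carry, was tested and higher (2.99), and Ms4a3 had 1 UMI in tumor and 1 in blood.

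Actin and motility genes were lower in 18 of 23 tested cases and higher in 3 (median −0.82). Lcp1, plastin 2, averaged 1159 ± 24.2 CPM in tumor and 3160 ± 52.1 CPM in blood (SD, n = 3 each; log2 fold change −1.42), Lsp1 fell by 1.74 and Arpc2, a subunit of the Arp2/3 complex, by 0.82, while the capping protein Capg rose by 1.79. Lysosome genes were higher in 16 of 20 and lower in 1, Cst3 (median 2.14). Ctsb, cathepsin B, had 2974, 2764 and 2952 CPM in the tumor mice, against 277, 229 and 254 CPM in the blood mice (log2 fold change 3.53), and the autophagy receptor Sqstm1 (3.36), the sphingolipid activator precursor Psap (1.90) and Ctsz (3.62) moved alike. The tumor mice of Ctsb lay far above the blood mice. Survival and apoptosis genes were higher in 10 of 14 and lower in 2, among them Bid (median 2.18). Mcl1, which keeps neutrophils alive, rose by 0.85, Pim1 by 2.47, the pro-apoptotic Bcl2l11 by 2.55 and the cell-cycle inhibitor Cdkn1a by 8.48, the last from 747 UMIs in tumor and 4 in blood.

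Surface and adhesion genes were split, with 13 of 28 higher and 11 lower (median 0.21), against 30.2% and 29.8% over all tested genes. The lectin receptors Clec4d (2950 ± 209 CPM in tumor and 808 ± 96.3 CPM in blood; SD, n = 3 each; log2 fold change 1.90) and Clec4n (2.95) were among those that rose, and Tyrobp, a signalling adaptor of activating receptors, fell by 0.51. Immune regulatory genes were higher in 10 of 14 and lower in 1, Vsir (median 2.46). Cd274, the gene of PD-L1, had 751, 794 and 847 CPM in the tumor mice, against 13.7, 15.8 and 15.1 CPM in the blood mice, with a log2 fold change of 5.74 by edgeR (adjusted p = 7.34e-13). Its tumor values were close together and far above blood. Lgals3, galectin 3, rose by 1.59, the costimulatory Cd86 by 2.40 and osteopontin, Spp1, by 6.33, and Ptgs2, the inducible cyclooxygenase, had 359 UMIs in tumor and 2 in blood. Pdcd1lg2, the gene of PD-L2, was at least 33.4-fold higher and Havcr2 at least 12.7-fold higher, both from 0 UMIs in blood.

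Interferon-stimulated genes did not move as a block, with 3 of 15 higher and 7 lower (median −0.50). Over all tested genes 30.2% were higher and 29.8% lower, and the small lists of this paragraph are to be read beside these shares. Isg15, a ubiquitin-like protein, rose by 2.11, the antiviral Rsad2 by 3.73 and Slfn2 by 0.51, whereas Ifitm1 (2280 ± 358 CPM in tumor and 5156 ± 363 CPM in blood; SD, n = 3 each), Ifitm2 and Ifitm6 fell by 1.18, 0.78 and 1.64. Of 11 tested MHC class I genes, 4 were higher and 2 lower (median 0.02), H2-K1 rising by 2.34, H2-T23 by 0.80 and the immunoproteasome gene Psmb9 falling by 1.64. Among 7 granulocyte transcription factors 3 were higher and 4 lower (median −1.41). The related factors Cebpb and Cebpd moved in opposite directions: Cebpb had 2436, 1726 and 2002 CPM in the tumor mice, against 110, 84.2 and 78.7 CPM in the blood mice, and Cebpd 170, 72.7 and 145 CPM in tumor, against 694, 603 and 627 CPM in blood. Their log2 fold changes were 4.47 and −2.56, with no overlap of groups in either gene. Spi1, the gene of PU.1, fell by 1.41, and the clock gene Per1 rose by 4.83. No NADPH oxidase gene of 7 was higher, and 3 were lower, among them Cyba (−0.49) and Rac2 (−1.35), and without the cells with markers of other types 2 of the 7 were higher. In cells with under 1500 UMIs it was 1 of the 7. Ncf4 did not pass (471 ± 9.79 CPM in tumor and 560 ± 6.85 CPM in blood; edgeR, adjusted p = 0.178). Of 70 tested ribosomal protein genes 36 were higher and 4 lower (median 0.66). The calls of genes with small changes depended on single mice or settings. Without tumor mouse 2 those of Btg1, H2-T23 and Sdhd no longer passed, without tumor mouse 3 those of Slfn2 and Prdx5, and without a blood mouse those of Btg1, H2-T23, Junb and Slfn2. With no filter on low counts, and so with more genes in the adjustment, the calls of Il1b, Junb, Btg1, Pkm, Slpi, Slfn2, Tnfaip2, H2-T23 and Clec7a did not pass either.

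**Figure D2:**
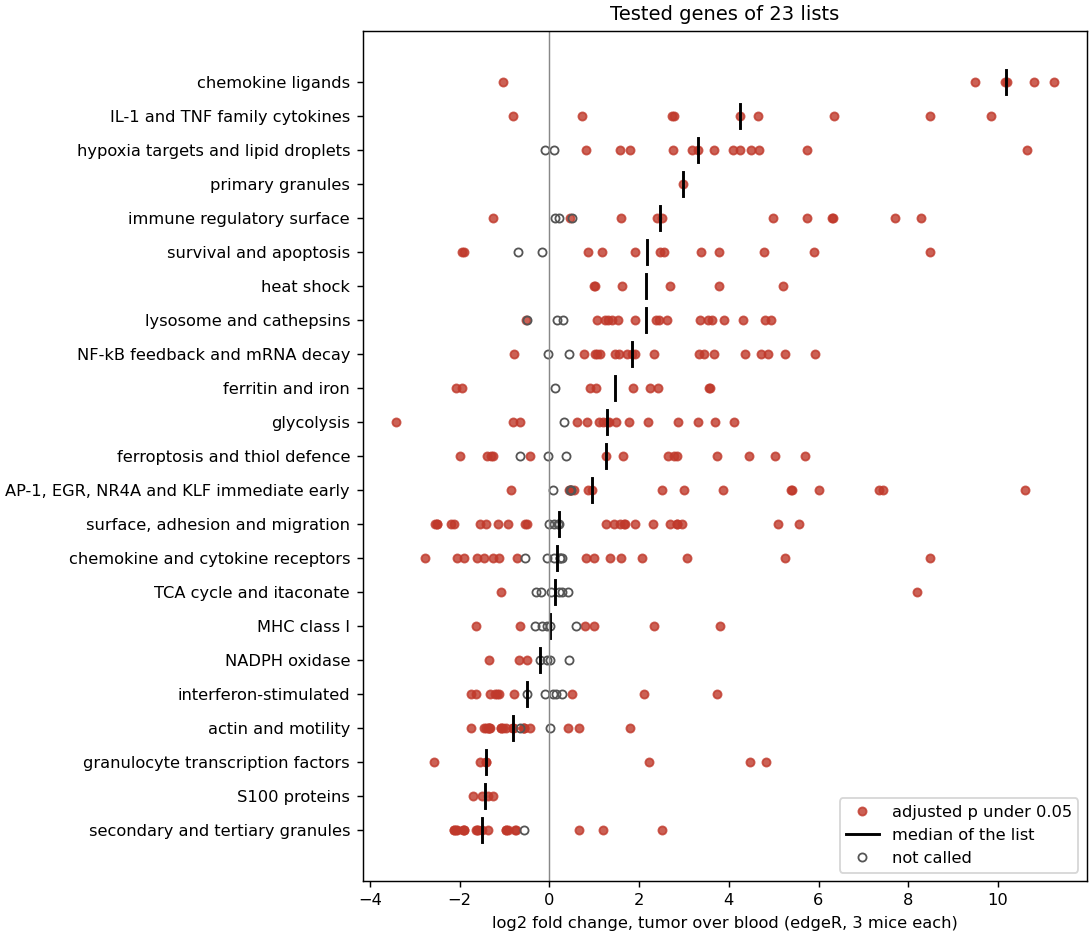
Log2 fold changes, tumor over blood, of the tested genes of 23 lists (edgeR, 3 mice each), with filled points for adjusted p under 0.05, open points for the others and a bar at each list's median. Chemokine ligands have the highest median (10.18) and secondary and tertiary granule genes the lowest (−1.50), and points of genes with 0 UMIs in blood are fitted values and not bounds.

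By a dispersion index, abundant secretory and calgranulin genes led the variation between tumor cells. The index is the squared deviation of a cell's count from that expected from its depth, divided by the expected count and averaged over the cells of a mouse. An index of 1 is what counting error alone gives, and the index grows with a gene's level, so it favours abundant genes. Of 524 genes with at least 20 UMIs in each tumor mouse, 167 (31.9%) exceeded 1.5 in all 3 mice, 119 of which were higher and 34 lower in tumor than in blood. Among all 524, which were chosen by their UMIs in tumor, 327 were higher and 113 lower. Genes just over that limit were Tyrobp (smallest index 1.502) and Fxyd5 (1.5004), and just under it Ptpn2 (1.4992) and Syne1 (1.491). All 25 of the most abundant genes exceeded it. By list, 6 of 6 measured chemokine ligands, 4 of 4 S100 genes, 8 of 10 granule genes and 7 of 9 hypoxia and lipid droplet genes exceeded it, but 2 of 17 actin genes, 1 of 6 glycolysis genes and 0 of 6 NADPH oxidase genes did. S100a8 led, with indices of 28.3, 39.7 and 43.2 in tumor mice 1, 2 and 3, and its share of a tumor cell's UMIs had a 10th percentile of 0, a median of 1.26% and a 90th percentile of 7.61%, with up to 679 UMIs in a cell. S100a9 (23.4 to 39.3), Cxcl2 (22.6 to 26.9), Retnlg (17.2 to 36.2) and Fth1 (12.3 to 12.8) came next.

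The other genes among the 20 most variable were the granule gene Ngp, Il1b, Nfkbia, Ccl4, Ftl1, Ccl3, Ccrl2, the mitochondrial ribosomal RNA mt-Rnr2, Il23a, Wfdc17, Cxcl1, the acute-phase gene Saa3, Spp1, Clec7a, the beta-glucan receptor, and Cxcl3. Of the 20, 14 were higher and 6 lower in tumor than in blood, and 12 were also among the 25 most abundant. The 6 include mt-Rnr2, whose counts the cell filter used. Il23a, a sparse secreted factor at 425 ± 165 CPM (SD, n = 3 tumor mice), had indices of 14.7, 6.69 and 5.64. The more abundant Ccl4, at 4380 ± 561 CPM, had 7.01, 13.4 and 16.2. For Ngp, 75.1% of the UMIs lay in the cells with markers of other types.

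Expressed as a coefficient of variation (CV) beyond counting error, which does not grow with level, genes of circulating neutrophils were more uneven among tumor cells than among blood cells. The 151 genes with at least 50 UMIs in all 6 mice were compared, a comparison chosen after values had been seen. In 67 (44.4%) every tumor mouse had a higher CV than every blood mouse, in 7 (4.64%) every tumor mouse had a lower one, and 77 overlapped. The median CV over these genes was 0.784, 0.821 and 0.779 in the tumor mice and 0.620, 0.647 and 0.618 in the blood mice. Among the 44 genes with a lower level in tumor, 32 had the higher CV and 0 the lower one, and among the 90 with a higher level 27 had the higher CV and 7 the lower one. S100a8 had CVs of 1.30, 1.59 and 1.51 in the tumor mice, against 0.607, 0.619 and 0.637 in the blood mice. Actb, often taken as an even reference, had CVs of 0.819, 0.900 and 0.876 in tumor and of 0.247, 0.272 and 0.251 in blood. In both genes every tumor mouse had a higher CV than every blood mouse. In blood the CV of S100a8 was near the median of the 151 genes and that of Actb below it. Every tumor mouse was also higher for Tmsb4x (0.781 to 0.881 in tumor, 0.236 to 0.269 in blood), Cxcr2 (1.28 to 1.32 in tumor, 0.371 to 0.567 in blood), the leukotriene pathway gene Alox5ap (1.21 to 1.36 in tumor, 0.291 to 0.392 in blood) and Retnlg, which was uneven in blood too (3.25 to 4.11 in tumor, 1.28 to 1.43 in blood). In the tumor mice Ngp (6.07 to 6.72), Lyz2 (3.43 to 4.55) and Lcn2 (2.87 to 4.61) also had CVs far above the median, whereas Fth1 (0.567 to 0.657) lay below it. Cells with markers of other types held 75.1% of the Ngp, 64.6% of the Lyz2 and 52.1% of the Lcn2 UMIs in tumor. The CV of Lcn2 overlapped between the tissues (2.08 to 2.90 in blood). Nfkbia was the reverse case, with CVs of 0.855, 0.979 and 0.878 in tumor and of 2.37, 1.96 and 1.42 in blood, and Cd14, Gadd45b, H2-K1, AA467197, Efhd2 and Tra2a were also lower. These genes were thus expressed more evenly among tumor cells. The CV of Fth1 overlapped between the tissues, whereas that of Ftl1 was higher in every tumor mouse (0.701 to 0.810 in tumor, 0.415 to 0.460 in blood). Without the cells with markers of other types the CV was higher in tumor in 60 of 123 genes, and in cells with under 1500 UMIs in 62 of 130, while in cells with at least 300 genes it was so in 32 of 88. The number of genes measured fell in each case. Without tumor mouse 1, which has the fewest cells, 131 of 243 genes had the higher CV in tumor.

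**Figure D3:**
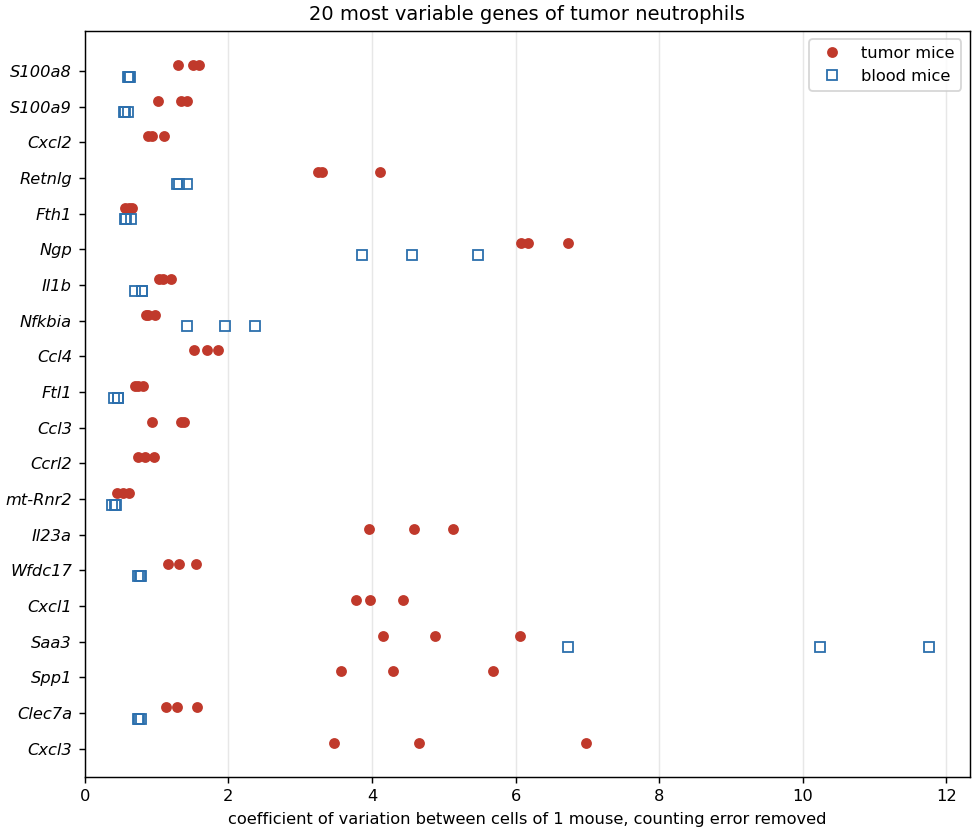
Coefficient of variation between the cells of a mouse, with counting error removed, for the 20 most variable genes of tumor neutrophils, with filled red points for 3 tumor mice and open blue squares for 3 blood mice (blood is drawn where each blood mouse has at least 20 UMIs). S100a8, S100a9, Retnlg, Ngp, Il1b, Wfdc17, Ftl1, Clec7a and mt-Rnr2 vary more between tumor cells than between blood cells. Nfkbia and Saa3 vary less, and Fth1 overlaps.

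Gene pairs that varied together fell into blocks that oppose calgranulin and actin genes to ferritin, cathepsin and chemokine genes. For each pair of 777 genes with a UMI in at least 10% of tumor cells, Pearson's r was taken across the cells of a mouse after removing depth, which gave 301476 pairs. These values describe cells that share a library, and no p is given. In 417 pairs (0.138%) r was at least 0.2 in all 3 tumor mice, and in 153 pairs (0.0508%) it was at most −0.2. The 417 positive pairs joined 180 genes. Where both genes of a positive pair differed between the tissues (395 pairs), both were higher in tumor in 164, both lower in 209 and opposite in 22. Of the 152 negative pairs with both genes called, 137 joined a gene higher in tumor to one lower in tumor. Of the 777 genes, 462 were higher and 159 lower in tumor. Among all 192510 of their pairs with both genes called, both were higher in 106491, both lower in 12561 and opposite in 73458 (38.2%). The UMIs of a cell sum to its depth, so very abundant genes take share from each other.

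The strongest pair was S100a8 with S100a9, at r = 0.85, 0.90 and 0.92 in tumor mice 1, 2 and 3, against 0.84, 0.80 and 0.80 in blood mice. Retnlg varied with S100a8 (0.66, 0.70 and 0.70 in tumor, 0.61, 0.55 and 0.64 in blood) and with Wfdc21 (0.77, 0.64 and 0.78 in tumor, 0.61, 0.42 and 0.54 in blood). These pairs were strongly positive in both tissues, and in all 3 each tumor mouse was above each blood mouse. Retnlg with S100a9 and S100a6, S100a8 with S100a6, S100a9 with Wfdc21, and Wfdc21 with S100a6, S100a8, Pglyrp1 and Lcn2 were other pairs of such genes among the 20 strongest, at r between 0.46 and 0.71 in the tumor mice. Of these, only Wfdc21 with Pglyrp1 had each tumor mouse above each blood mouse (0.346, 0.345 and 0.263 in blood). The others overlapped between the tissues, for instance S100a9 with Wfdc21 (0.50, 0.66 and 0.68 in tumor, 0.58, 0.55 and 0.55 in blood). All these pairs were ranked by their r in tumor, which favours higher values there. Other strong pairs were weak in blood. Actb varied with Tmsb4x at 0.61, 0.55 and 0.53 in the tumor mice, against 0.12, 0.20 and 0.17 in the blood mice, and with S100a9 at 0.58, 0.57 and 0.48 in tumor, against 0.15, −0.05 and 0.09 in blood. S100a11 varied with S100a8 at 0.52, 0.53 and 0.61 in tumor, against 0.21, 0.10 and 0.16 in blood, and with S100a9 in the same way (0.49, 0.56 and 0.66 in tumor, 0.27, 0.09 and 0.13 in blood). Thus the actin pair and the S100a11 pairs belonged to the variation of tumor cells more than to that of blood cells. Anxa1, the anti-inflammatory annexin, varied with Pglyrp1 (0.55, 0.53 and 0.57 in tumor, 0.40, 0.39 and 0.28 in blood) and with Arhgdib. Of the 20 pairs, 3 join near-identical genes between which reads may have been split: Mrgpra2a with Mrgpra2b, Rplp1 with Gm11942 and Fth1 with Gm6977. The 417 pairs include 31 of ribosomal protein genes and 0 of mitochondrial genes.

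The 6 markers did not rise and fall as 1 unit. Cxcl2 varied most with Ccl3, at r = 0.45, 0.55 and 0.58 in the tumor mice, then with Ccrl2 at 0.34, 0.31 and 0.34, with Ier3 at 0.34, 0.25 and 0.39 and with Nfkbia at 0.42, 0.24 and 0.28. Fth1 varied with Ftl1 at 0.43, 0.41 and 0.41 and with Acod1 at 0.39, 0.34 and 0.33. The pair of Cxcl2 and Fth1 themselves, the leading transcripts, stood at −0.05, 0.13 and 0.20. Thus Cxcl2 and Fth1, both abundant in tumor, varied largely apart. Acod1 varied with Clec4e at 0.30, 0.42 and 0.26, and Ccrl2 with Clec4e at 0.41, 0.37 and 0.41. Hilpda varied with the glycolytic Tpi1 (0.29, 0.31 and 0.36), the hypoxia-induced mitophagy gene Bnip3 (0.34, 0.28 and 0.29), Ldha (0.26, 0.26 and 0.37), the lysosomal cathepsin gene Ctsb (0.38, 0.25 and 0.25) and the protease inhibitor gene Cstb (0.24, 0.29 and 0.33), and with Acod1 its r was 0.25, 0.02 and 0.10. Cd274 was in 5 of the counted pairs, with Fth1, Ftl1, Ero1l, Bsg and Soat1.

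The strongest negative pairs set actin and thymosin against lysosomal, chemokine and hypoxia genes. Actb stood at −0.37, −0.39 and −0.40 with Ctsb in tumor mice 1, 2 and 3, and at −0.39, −0.36 and −0.40 with Hilpda. Tmsb4x stood at −0.42, −0.36 and −0.43 with Ccl3. All of these pairs were negative in each tumor mouse. Joined at r of at least 0.3 in every tumor mouse, a limit chosen after values had been seen, the positive pairs formed a calgranulin group of 26 genes, a ferritin group of 8 (Fth1, Ftl1, Acod1, Cstb, Ctsb, Esd, Lgals3 and Gm6977), a chemokine group of 4 (Cxcl2, Ccl3, Ccrl2 and Clec4e), a ribosomal group of 4, an interferon group of 4 (Isg15, Rsad2, Slfn4 and Ifitm3) and smaller ones such as Nfkbia with Tnfaip3. The calgranulin group holds the S100, Retnlg, Wfdc21, Lcn2 and Anxa1 genes with Actb, Tmsb4x and Pfn1, and 23 of its 26 genes were lower in tumor than in blood. Its members Cd14, Srgn and Hdc, the histamine-forming enzyme, were higher. The 8 ferritin-group and 4 chemokine-group genes were all higher in tumor, which is given as a description, since genes entered by their detection in tumor cells and those near 0 in blood, such as Cxcl2, Ccl3 and Ccrl2, could only be higher.

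Between these groups the relation differed between the tissues. Among calgranulin-group genes the median r was 0.25, 0.23 and 0.28 in the tumor mice, against 0.05, 0.04 and 0.06 in the blood mice, and among ferritin-group genes 0.23, 0.24 and 0.20 in tumor, against 0.01, −0.00 and −0.02 in blood. Between the calgranulin and the ferritin group it was −0.16, −0.15 and −0.15 in tumor, against 0.00, 0.00 and −0.00 in blood. Between the ferritin and the chemokine group the median r was 0.04, 0.13 and 0.10 in tumor, and most pairs were positive. In blood it was 0.03, 0.02 and 0.06, from 6 or 7 measured pairs a mouse. The groups were built from the tumor cells, so higher values there are a description with no test. The ferritin-group and chemokine-group genes also had lower levels in blood, and the part of level in these r values was not tested. Without the cells with markers of other types the median r was 0.22, 0.23 and 0.23 within the calgranulin group and −0.13, −0.14 and −0.14 between it and the ferritin group.

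Cell by cell, most tumor neutrophils carried ferritin and chemokine transcripts far above the level of blood cells, and a wide range of calgranulin transcripts. The calgranulin group made up a median of 8.47% of a tumor cell's UMIs (10th to 90th percentile 1.88% to 27.1%), against 24.4% in blood cells. The ferritin group made up 6.75% in tumor cells (2.45% to 13.4%) and 0.771% in blood cells, and the chemokine group 4.11% in tumor cells and 0 in blood cells. In 495 of 947 tumor cells (52.3%) the calgranulin share was at or above the 5th percentile of blood cells, 8.06%, and this count was similar in the mice, at 55.7%, 54.1% and 50.3%. In contrast, the summed ferritin and chemokine share was at or below the 95th percentile of blood cells, 1.89%, in 16 tumor cells (1.69%), and both held in 7 cells (0.739%). Without the cells with markers of other types the counts were 446, 7 and 2 of 849 cells. Few tumor cells thus had ferritin and chemokine shares in the blood range, and this was also true of those whose calgranulin share lay in it. RNA outside cells, which carried Fth1 and Cxcl2 as well, reaches all droplets of the tumor library, and its part in this result was not tested.

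**Figure D4:**
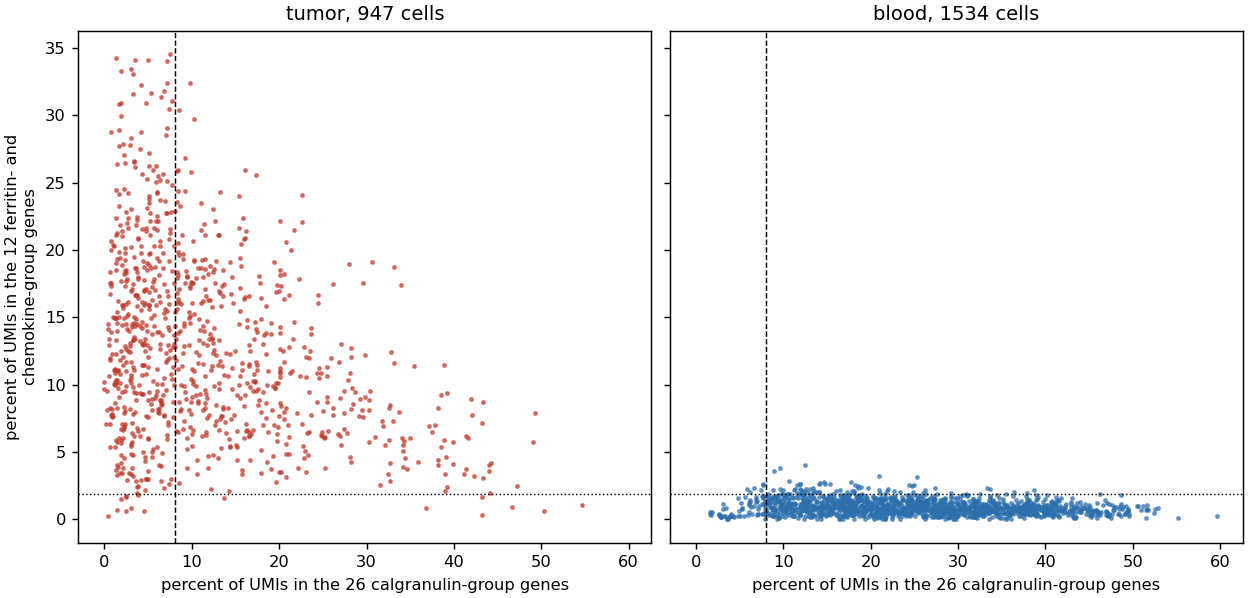
Each point is a cell, by the percent of its UMIs in the 26 calgranulin-group genes and in the 12 ferritin- and chemokine-group genes, for 947 tumor cells (left, red) and 1534 blood cells (right, blue). Dashed and dotted lines mark the 5th percentile (8.06%) and the 95th percentile (1.89%) of blood cells on each axis, and nearly all tumor cells lie above the dotted line whatever their calgranulin share.

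By an index that grows with a gene's level, the tumor mice differed most in Cxcl2, other abundant genes and genes held by few cells. Of 811 genes with at least 100 UMIs over the tumor mice, 177 had a between-mouse index over 3, where 1 is counting error alone, and the median was 1.28. Variation between the cells of a mouse also raises this index, so the 177 are not a count of genes that differ among mice. For Cxcl2 the between-mouse index was 298 and the dispersion index within a mouse 22.6 to 26.9. For S100a8 they were 72.75 and 28.3 to 43.2. The part of variation between cells was not tested. Cxcl2 ranked first, since mouse 2 (26569 CPM) was below mice 1 and 3 (38180 and 38789 CPM). S100a8, Il1b, Fth1 and Retnlg were the other abundant genes among the 10 that differed most. The remaining genes were Camp, Ngp, Ltf, Cd74 and Lyz2. Camp, the cathelicidin gene, had 99.1, 2092 and 488 CPM in tumor mice 1, 2 and 3, and Cd74, the MHC class II invariant chain, 85.0, 1334 and 1232 CPM. Mouse 1 was thus the lowest in both, with the fewest cells of the 3.

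These genes lay in small sets of cells. The 98 cells with markers of other types, 9, 59 and 15 of them in mice 1, 2 and 3, held 96.3% of the Cd74 UMIs, 69.1% of those of Camp, 75.1% of Ngp, 74.2% of Ltf and 64.6% of Lyz2. Cd74 is itself 1 of the markers that set these cells apart, so its share follows in part from that choice. The 98 cells had a median of 798.5 UMIs, against 565 in the other tumor cells. Cd74 and Camp did not share cells. The 56 cells set apart by macrophage markers other than Ly6c2, a list without Cd74, held 94.0% of the Cd74 UMIs and 1.63% of those of Camp. Conversely, 24 cells (2.53%) with 5 or more UMIs of Camp, Ngp and Ltf, a limit chosen after values had been seen, held 97.7% of the Camp UMIs, 96.6% of those of Ngp and 90.5% of those of Ltf. These 24 cells were chosen by the same 3 genes, so high shares follow in part from the choice. These granule genes are made in bone marrow precursors before release. Such cells numbered 2, 16 and 4 in tumor mice 1, 2 and 3 and had a median of 1421.5 UMIs. Of the 16 cells with 2 or more UMIs of Ly6c2, a monocyte marker that immature granulocytes also carry, 13 were among the cells with these granule transcripts. Doublets were not called apart from mixed hashtags, and their part in cells with many UMIs was not tested.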

How the data were processed

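The authors deposited unnormalized tables of UMI counts (genes by barcodes) and of hashtag counts, as the whole-number values show. The aligner STAR and the build mm10 are credited to the submitters' processing notes. How genes were counted, and by which annotation, is not given in the sources used here. Reads from near-identical genes may have been split between them. Genes missing from a file were set to 0 counts there (12243 of 18894 genes were in both).

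Cells with at least 200 genes and at most 15% mitochondrial UMIs were kept, and UMIs were summed per mouse and tissue. Tumor mice held 70612, 385370 and 116862 UMIs and blood mice 436713, 380059 and 330296, so precision is lowest in tumor mouse 1. Sums were compared by edgeR 4.0.16 in R 4.3.3 (quasi-likelihood test) after its low-count filter (3674 genes with 93.9% of the counts) and TMM scaling, in a model of tissue alone, with p-values adjusted by Benjamini and Hochberg (threshold 0.05). The labels say that blood came from the same mice but not which hashtag marks which mouse, so mice were not paired, and p-values reflect variation among 3 mice of 1 library each. DESeq2 1.42.0 was an alternative. The scripts were tested on simulated data. Dispersion, pair correlations (Pearson residuals of Poisson expectation) and CVs were computed in Python 3.11.15 with numpy 2.4.6. Where 0 UMIs were seen, folds are lower bounds against 3 counts over the summed mice, and floors cover counting error only. Cells with mixed hashtags stayed in the population but in no mouse. Doublets were not called further, and hashtags cannot show those within a mouse. Gene positions are from GENCODE M21 (GRCm38).

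Named genes were the 25 most abundant, the 20 most variable, the 20 strongest pairs, the 10 that differed most among tumor mice, the 6 markers, and of each of 23 lists up to 4 members of highest level and up to 2 of largest fold change. A gene that this rule names is not reported here. Members and lists were chosen with earlier results of these data known. Alternatives were other scaling, filters, hashtag and cell limits, leaving out each mouse, thinning to 400 UMIs, other scales for r, and leaving out cells with markers of other types or, chosen after seeing the data, cells with 1500 UMIs or more.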

Additional observations from a re-analysis of the deposited data

How the results depend on the processing

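The number of pairs counted in all 3 tumor mice (417) was 967 in cells with at least 300 genes, 130 after thinning to 400 UMIs (147 shallower cells left out), 164490 with Spearman ranks, which order zero counts by depth by construction, 238 among genes with a UMI in at least 20% of cells, and 648 to 1130 with each tumor mouse left out, when fewer mice had to pass. Variable genes numbered 72 after thinning, against 167, and 183 to 274 with each tumor mouse left out. Of the 10 genes that differed most among mice, 6 were shared in cells with under 1500 UMIs and 6 to 7 with a mouse left out. Genes with a higher CV in tumor numbered 32 in cells with at least 300 genes, against 67, and 68 to 131 with each mouse left out.

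Calls between the tissues (1111 higher, 1094 lower) were 880 and 888 with DESeq2, 1019 and 1214 with upper-quartile scaling, 1233 and 1397 with no filter on low counts, 823 and 795 with hashtag shares of at least 90%, and 833 and 849 without tumor replicate 2. Deviations of same-numbered tumor and blood mice had correlations of 0.02, 0.01 and −0.02 over all tested genes. Over 495 abundant genes the correlations were −0.05, 0.13 and 0.03. Only 524 genes had at least 20 UMIs in each tumor mouse. These values therefore cannot decide whether a hashtag number marks the same mouse in both tissues. With the replicate block the calls were 993 and 980. The median of all genes was −0.17 with upper-quartile scaling, −0.15 with no filter, −0.12 with DESeq2 and −0.16 without tumor replicate 2, against −0.04.

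Genes near 0 changed sign. B2m (0.02) was −0.032 with DESeq2, −0.095 with upper-quartile scaling, −0.27 with no filter, −0.12 with at least 300 genes, −0.010 with at most 10% mitochondrial UMIs, −0.11 without cells with markers of other types, −0.075 under 1500 UMIs and −0.12 to 0.12 with each mouse left out. Cs (0.03) was −0.10, −0.20 and −0.18 with upper-quartile scaling, no filter and under 1500 UMIs, and −0.21 to 0.41 with each mouse left out. Slc11a1 (0.13) was −0.15 with no filter, −0.034 at a hashtag share of 90% and −0.059 to 0.19 with each mouse left out. Txn1 (−0.02) was 0.071 at a hashtag share of 90%, 0.0018 without cells with markers of other types and −0.21 to 0.036 with each mouse left out, and Mdh2 (−0.20) was −0.51 to 0.083. Ngp, Camp and Ltf, lower in tumor, turned to 0.18, 0.085 and 0.87 without the cells with markers of other types. Most of their UMIs lie in 16 such cells, set apart by Ly6c2 (55.6%, 61.7% and 63.0% over Camp, Ltf and Ngp). With no filter the medians of the granulocyte factor and interferon lists turned to 1.91 and 0.06, and those of the receptor, TCA cycle and MHC class I lists, all near 0, changed sign in several settings. Over named genes 58 values in 19 genes lost their call and 5 in H2-D1 and Ncf4 gained one. For the other changes the cause was not tested.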
